A study of Mus musculus with 2 samples.

Results

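The muscle miRNA genes Mir206, Mir133b, Mir499, Mir208b, Mir1a-1, Mir133a-1 and Mir133a-2 were followed in fetal mouse liver. They were found by versionless Ensembl identifier in the GENCODE mouse annotation, and all 7 had a row among the 1973 gene rows of each count table. MicroRNAs were sequenced from total RNA of whole liver of B6NCrl mouse embryos at embryonic day 16.5. The 2 biological replicates form 1 group, and each was a pool of livers of both sexes from healthy embryos. The labels give them as separate tissue samples under 1 donor identifier. Replicate 2 was pooled from 41 embryos, and the labels do not give the number for replicate 1. No genotype, treatment or second tissue was compared, so the values below describe levels and the difference between these 2 pools.

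These genes belong to the miRNAs that are enriched in striated muscle. In mouse, miR-206 is largely restricted to skeletal muscle, where it favours differentiation of myoblasts, and miR-133b lies beside it in the muscle noncoding RNA linc-MD1. miR-1 and miR-133a are made as pairs in heart and skeletal muscle, where miR-1 favours differentiation and miR-133 favours myoblast proliferation. miR-208b and miR-499 are cut from introns of the myosin heavy chain genes Myh7 and Myh7b and take part in the choice of slow muscle fibres.

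The mature sequences are shown because the seed, the stretch that pairs with target messengers, divides the genes into families, and because shared sequence decides which reads could be counted at a single gene. Sequences are from RefSeq on GRCm38.p6, 5′ to 3′, with seed bases 2 to 8 in capitals. The table held an entry for 5 of the 7 genes.
miR-206-3p: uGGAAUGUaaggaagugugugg
miR-1a-1-5p: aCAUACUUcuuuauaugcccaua
miR-133b-3p: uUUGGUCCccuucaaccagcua
miR-208b-3p: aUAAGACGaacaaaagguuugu
miR-208a-3p: aUAAGACGagcaaaaagcuugu
miR-499-5p: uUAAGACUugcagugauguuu

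The seed of miR-208b-3p was shared by miR-208a-3p, the product of the neighbouring Myh6 intron, and 19 of the 22 bases of these miRNAs were identical. miR-499-5p shared 6 of the 7 seed bases with miR-208b-3p. The seed of miR-206-3p also occurred in 2 other mature entries of the table, miR-6349 and miR-6382, whose genes had no count in either library. Of Mir1a-1 the table held the 5p arm only; its 3p arm, miR-1a-3p, which is known as a member of the miR-206 seed family, is not shown. The first 21 of the 22 bases of miR-133b-3p also occurred in the hairpins of Mir133a-1 and Mir133a-2, so that a read shortened by its last base would map to several places. For miR-206-3p the stretch shared with any other annotated miRNA hairpin was 10 bases from the 5′ end, for miR-208b-3p and miR-499-5p it was 9 bases, and for the 5p arm of Mir1a-1 it was 14 bases. Counted in words of 18 bases, 0% of the hairpins of Mir206, Mir499 and Mir208b occurred in another miRNA hairpin. The shared part was 3.92% for Mir133b, 18.3% for Mir1a-1 (shared with Mir1a-2), 24.1% for Mir133a-2 and 41.2% for Mir133a-1. Reads that mapped to several places made up 28.2% of the reads in replicate 2 and 28.1% in replicate 1. They are outside the gene counts.

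Counts were made per hairpin gene and did not separate the arms. The hairpins of Mir206 and Mir499 are shown as the units that were counted, with the annotated mature arms in capitals.
Mir206: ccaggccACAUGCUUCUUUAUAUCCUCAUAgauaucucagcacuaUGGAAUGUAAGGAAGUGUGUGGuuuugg
Mir499: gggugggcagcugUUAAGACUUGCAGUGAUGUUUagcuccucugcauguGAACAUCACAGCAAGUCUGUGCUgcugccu

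On mm10, Mir206 (ENSMUSG00000065559.1) lies on chromosome 1 at 20679010 to 20679082, plus strand. It falls in intron 2 of the spliced transcript of the long noncoding RNA gene Gm28653, which RefSeq lists as Lincmd1, and overlaps part of an unspliced transcript of that gene. Mir133b (ENSMUSG00000065480.1; chromosome 1, 20682769 to 20682887, plus strand) lies 3686 bases further on, within exon 3 of the spliced transcript. Mir499 (ENSMUSG00000076312.1; chromosome 2, 155622880 to 155622958, plus strand) lies in intron 19 of the 41 introns of Myh7b. Mir208b (ENSMUSG00000077928.1; chromosome 14, 54975700 to 54975776, minus strand) lies in intron 31 of the 40 introns of Myh7. Mir1a-1 (ENSMUSG00000070144.1; chromosome 2, 180389048 to 180389124) and Mir133a-2 (ENSMUSG00000065460.1; chromosome 2, 180398379 to 180398482) are neighbours on the plus strand, 9254 bases apart, and overlap no other annotated gene. Mir133a-1 (ENSMUSG00000065399.1; chromosome 18, 10782909 to 10782976, minus strand) lies in the intron of its host Mir133a-1hg and opposite an intron of Mib1.

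**Figure D1:**
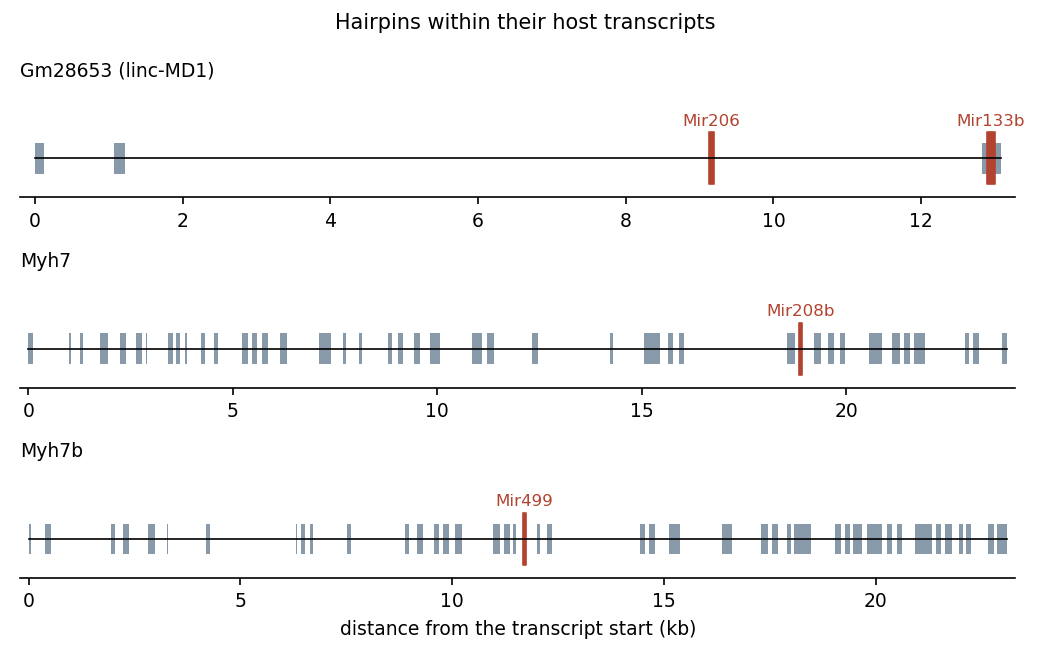
Hairpins of the muscle miRNA genes (red) within the exons (grey) of their host transcripts, by distance from the transcript start in kb. Mir206 lies in an intron and Mir133b in the last exon of Gm28653, and Mir208b and Mir499 lie in introns of Myh7 and Myh7b.

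Replicate 2 held 5102289 sense-strand counts over all miRNA genes and replicate 1 held 5930074. Levels are given as CPM, the count of a gene scaled to a total of 1000000. In this unit, 1 count is worth 0.196 in replicate 2 and 0.169 in replicate 1. For a gene with no count the upper limit was set at 3 counts, which is 0.588 CPM in replicate 2, against 0.506 CPM in replicate 1. The labelled tissue was checked against liver markers: the hepatocyte miRNA Mir122 was at 214555 CPM in replicate 2 and 213274 CPM in replicate 1. Intervals and limits cover counting error only, and not the spread between pools. Molecular identifiers are not mentioned in the sources used here, and PCR copies are not independent molecules, so the intervals may be too narrow. Mature miRNAs are of nearly equal length (21 to 23 bases for those examined here), so counts were not divided by length. Levels of different miRNAs can still differ through how well each sequence is captured.

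The 7 muscle miRNA genes together held 0.226% of all sense-strand counts in replicate 2 (interval 0.222% to 0.230%, by the exact Clopper-Pearson method at 95%), against 0.130% in replicate 1 (0.127% to 0.133%). Their mean was 0.178% ± 0.068 (SD, n = 2). Mir206 made up most of it, with 90.8% of the counts of the 7 genes in replicate 2 (interval 90.3% to 91.3%) and 84.9% in replicate 1 (84.1% to 85.7%). Without Mir206, the genes held 0.0207% of all counts in replicate 2 (0.0195% to 0.0220%) and 0.0196% in replicate 1 (0.0185% to 0.0208%). The interval of the summed share thus overlapped between the pools without Mir206 and did not overlap with it.

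Mir206, the skeletal muscle miRNA of the set, had 10458 counts in replicate 2 and 6545 counts in replicate 1. Its level was 2050 CPM in replicate 2, against 1104 CPM in replicate 1, with a mean of 1577 ± 669 CPM (SD, n = 2). It ranked 61st in replicate 2 and 82nd in replicate 1 among the 1973 gene rows by CPM. Its neighbours in the order of mean levels were Mir107 (1392 CPM in replicate 2 and 1782 CPM in replicate 1) and Mir194-2 (1654 and 1462 CPM in the same order), and the ranges of both overlapped that of Mir206. Mir206 lay below Mir122 by 105-fold in replicate 2, against 193-fold in replicate 1.

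Mir133b, the partner of Mir206 in linc-MD1, was far lower, with 62 counts in replicate 2 and 88 counts in replicate 1. These counts correspond to 12.2 CPM in replicate 2 and 14.8 CPM in replicate 1 (mean 13.5 ± 1.90 CPM, SD, n = 2). The ratio of Mir206 to Mir133b was 169 in replicate 2 (95% interval 131 to 220) and 74.4 in replicate 1 (60.3 to 92.9). The intervals of the ratio did not overlap between the libraries. Both genes lie on the same strand of the same noncoding RNA gene, but Mir133b shares nearly all of its 3p arm with the Mir133a hairpins, and reads mapping to several places were not counted. What part this has in the ratio was not tested.

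Of the myosin-hosted genes, Mir499 had 730 counts in replicate 2 and 858 counts in replicate 1. Its level was 143 CPM in replicate 2 and 145 CPM in replicate 1 (mean 144 ± 1.14 CPM), the closest pair of values among the 4 members with 10 or more counts. Mir208b had 264 counts in replicate 2 and 219 counts in replicate 1, or 51.7 CPM in replicate 2 and 36.9 CPM in replicate 1 (mean 44.3 ± 10.5 CPM). Mir499 exceeded Mir208b by 2.77-fold in replicate 2 (interval 2.40 to 3.20) and by 3.92-fold in replicate 1 (3.37 to 4.57). The order Mir206, Mir499, Mir208b, Mir133b was the same in both libraries, and neighbours in it had CPM ranges that did not overlap. By contrast, the genes of the whole table next above and next below each of these members (Mir6236 and Mir106a for Mir499, Mir205 and Mir326 for Mir208b, Mir378d and Gm26117 for Mir133b) had ranges that overlapped the member's own.

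Mir1a-1 had 1 count in replicate 2 and 0 counts in replicate 1. Mir133a-1 and Mir133a-2 had 0 counts in both libraries, which allows up to 0.588 CPM in replicate 2 and 0.506 CPM in replicate 1 at these loci. These values do not show that miR-1a or miR-133a is absent, because each shares 18-base words with another hairpin and reads mapping to several places are outside the counts. No counts lay on the strand opposite any of the 7 genes in either library.

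**Figure D2:**
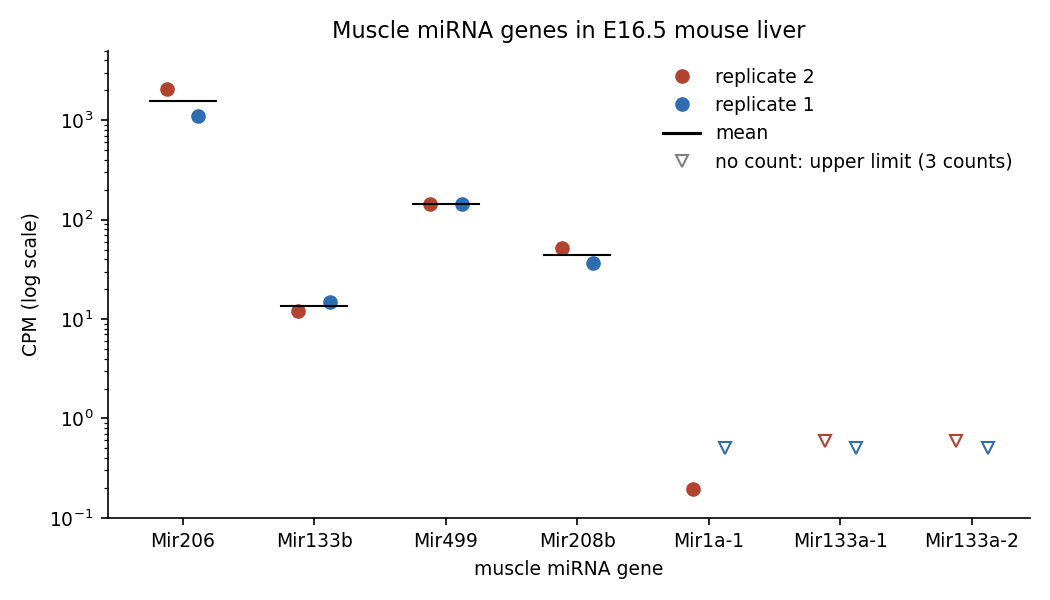
CPM of the 7 muscle miRNA genes on a log axis, with a point for each library (red, replicate 2; blue, replicate 1), a line for the mean of genes with 10 or more counts, and an open triangle at the limit of 3 counts where a library had none. Mir206 is highest at 2050 and 1104 CPM, followed by Mir499, Mir208b and Mir133b; the 1 count of Mir1a-1 lies below the limit drawn for libraries without a count.

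The other genes of the muscle families with a row were nearly uncounted. Mir208a, in an intron of the cardiac myosin gene Myh6, had 15 counts in replicate 2 (2.94 CPM) and 13 counts in replicate 1 (2.19 CPM). Mir208b exceeded it by 17.6-fold in replicate 2 (interval 10.5 to 31.9) and by 16.8-fold in replicate 1 (9.65 to 32.1), with wide intervals that overlapped. Mir1b had 11 counts in replicate 2 and 13 counts in replicate 1, and Mir133c had none in either. Mir1a-2, which lies opposite Mir1b, has no row of its own.

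**Figure D3:**
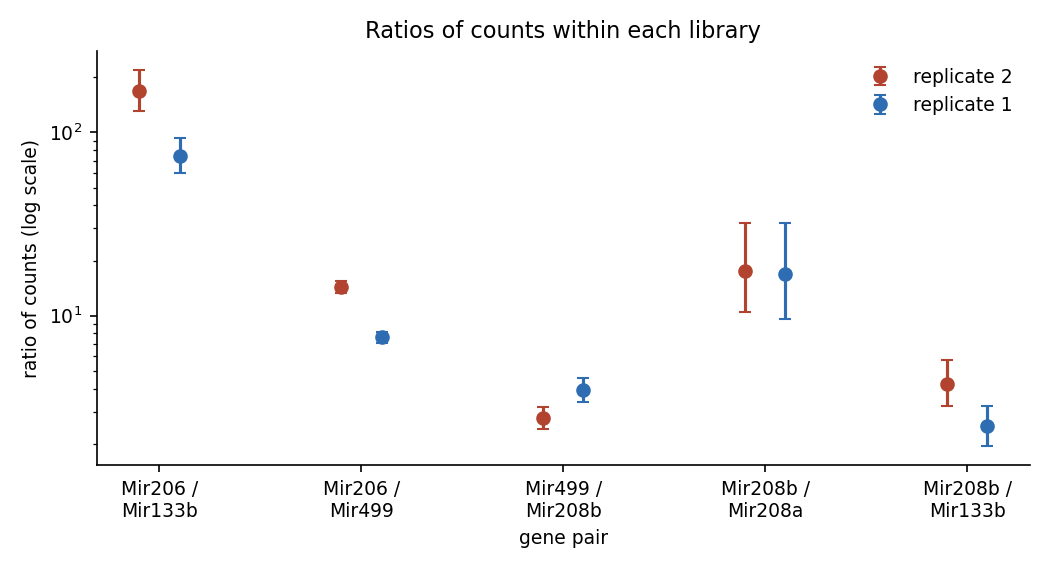
Ratios of counts between pairs of muscle miRNA genes within each library (red, replicate 2; blue, replicate 1) on a log axis, with 95% counting intervals. The ratio of Mir206 to Mir133b is 169 in replicate 2 and 74.4 in replicate 1, while the ratios of Mir208b to Mir208a, 17.6 and 16.8, have overlapping intervals.

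Between the pools, Mir206 and Mir208b were higher in replicate 2 and the other 2 genes tested were not called. The 440 genes whose counts in the 2 libraries summed to at least 10 entered an exact binomial test (two-sided), with Benjamini-Hochberg adjustment over all of them and a threshold of 0.05. Of the 7 members, 4 were tested and 2 were called, both higher in replicate 2. Over all genes tested, 44.5% were called in either direction and 17.5% were called higher in replicate 2 (77 higher and 119 lower; 96 higher and 98 lower with edgeR TMM scaling). The test compares the reads of these 2 libraries and not conditions, and a call was common at high depth: of the 183 genes whose mean reached 100 CPM, 79.2% were called and 28.4% were called higher in replicate 2. Of the 97 genes of 10 to 100 CPM, 33% were called and 21.6% were called higher.

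In Mir206 the level in replicate 2 was 1.86-fold that in replicate 1 (log2 ratio 0.89, with a counting SE of 0.02). Its exact binomial p was below the smallest number the software holds. Its ratio was the third highest of the 183 genes whose mean reached 100 CPM, after Mir215 (29.6-fold) and Mir200c (2.14-fold), and the median absolute log2 ratio over these genes was 0.20. The common biological coefficient of variation of the libraries was 0.229 over 440 genes (edgeR).

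Mir208b exceeded its level of replicate 1 by 1.40-fold in replicate 2 (log2 ratio 0.49, counting SE 0.13, exact binomial adjusted p = 0.00073). Among the 97 genes of 10 to 100 CPM, 24 had a larger log2 ratio in either direction, and the median absolute log2 ratio was 0.26. Mir499 had a log2 ratio of -0.02 (counting SE 0.07, exact binomial adjusted p = 0.92), which became 0.06 with TMM or DESeq2 scaling. Its counting interval with the totals used here ran from -0.16 to 0.13. Mir133b had a log2 ratio of -0.28 (counting SE 0.24, exact binomial adjusted p = 0.39), with an interval from -0.75 to 0.18. At 150 counts over both libraries, the interval of Mir133b took in both a lower and a higher level in replicate 2. The genes of the linc-MD1 pair thus had log2 ratios of opposite sign, that of Mir206 past the test and that of Mir133b not, and the ratio of Mir206 to Mir133b was 2.27-fold larger in replicate 2.

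**Figure D4:**
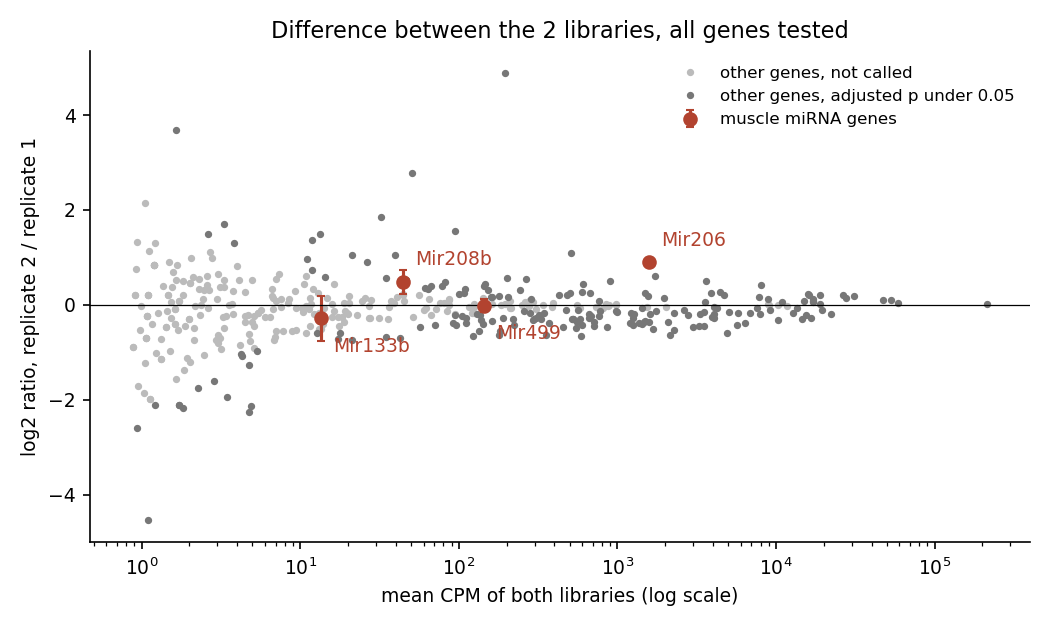
Log2 ratio of replicate 2 over replicate 1 against the mean CPM on a log axis for all genes tested (grey; darker where the adjusted p was under 0.05) and for the 4 muscle miRNA genes tested (red, with 95% counting intervals). Mir206, at 0.89, lies above nearly all genes of 100 CPM or more, while Mir499 lies at -0.02.

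Genes whose difference between the libraries was nearest that of Mir206 were sought among those whose mean reached 100 CPM, over 2 libraries only. They were Mir200c (log2 1.09), Mir375 (0.60), Mir200a (0.56), Mir182 (0.55) and Mir429 (0.51), against 0.89 for Mir206. Mir200a, Mir200c and Mir429 belong to the miR-200 family of epithelial and biliary cells, and Mir375 is a miRNA of pancreatic endocrine cells. With 2 libraries, likeness is a single ratio, so it describes these pools and no shared pattern.

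Several markers of cell types other than hepatocytes were also higher in replicate 2, as were some hepatocyte markers. The counts of calls below stand beside 17.5% of all genes tested, and 28.4% of those at 100 CPM or more, that were called higher. All 5 markers of simple epithelium were called higher (4 of them at 100 CPM or more), and their summed level was 6376 CPM in replicate 2 and 4266 CPM in replicate 1. Both gut markers were called higher, with a sum of 427 CPM in replicate 2 and 26.6 CPM in replicate 1. Mir200a, Mir200b and Mir429 lie in a common cluster, as do Mir200c with Mir141 and the gut markers Mir215 with Mir194-1. Calls within a cluster are not independent of each other. Mir215, the intestinal relative of Mir192, had 1920 counts in replicate 2 and 75 counts in replicate 1. Of 4 pancreas markers, 1 was called higher (Mir375) and 1 lower (Mir216b), with a sum of 2105 CPM in replicate 2, against 1395 CPM in replicate 1; with TMM scaling 2 were called higher. Nearly all of that sum was Mir375, at 2086 CPM in replicate 2 and 1378 CPM in replicate 1. Both the simple epithelium and gut lists, and Mir375, were higher in the same library as Mir206, and their part in its difference was not tested.

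The skeletal muscle list, consisted almost wholly of Mir206 by level. Of the skeletal muscle markers, 5 of 6 had a row, 2 were tested and 1 was called (Mir206), with a sum of 2062 CPM in replicate 2 and 1119 CPM in replicate 1. Cardiac and slow muscle markers (3 genes) summed to 198 CPM in replicate 2 and 184 CPM in replicate 1, and 1 was called higher (Mir208b). Of the 2 markers of squamous epithelium, 1 was called higher (Mir203; sum 590 CPM in replicate 2 and 500 CPM in replicate 1). Of the 9 neural markers tested, 1 was called higher and 1 lower, and with TMM scaling 2 were called higher. The neural list summed to 333 CPM in replicate 2 and 326 CPM in replicate 1, and 3 more of its genes had no count. Reads mapping to several places are outside these counts, so no count at a gene does not show that its miRNA is absent. The 4 hepatocyte markers summed to 221989 CPM in replicate 2 and 219881 CPM in replicate 1, and 3 of them were called higher, by log2 ratios of 0.01 (Mir122), 0.25 (Mir192) and 0.18 (Mir194-2). The 3 erythroid markers summed to 27152 CPM in replicate 2 and 24071 CPM in replicate 1, with Mir451a and Mir144 called higher and Mir486 lower. In whole tissue, fewer cells of a type and less RNA per cell cannot be told apart.

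**Figure D5:**
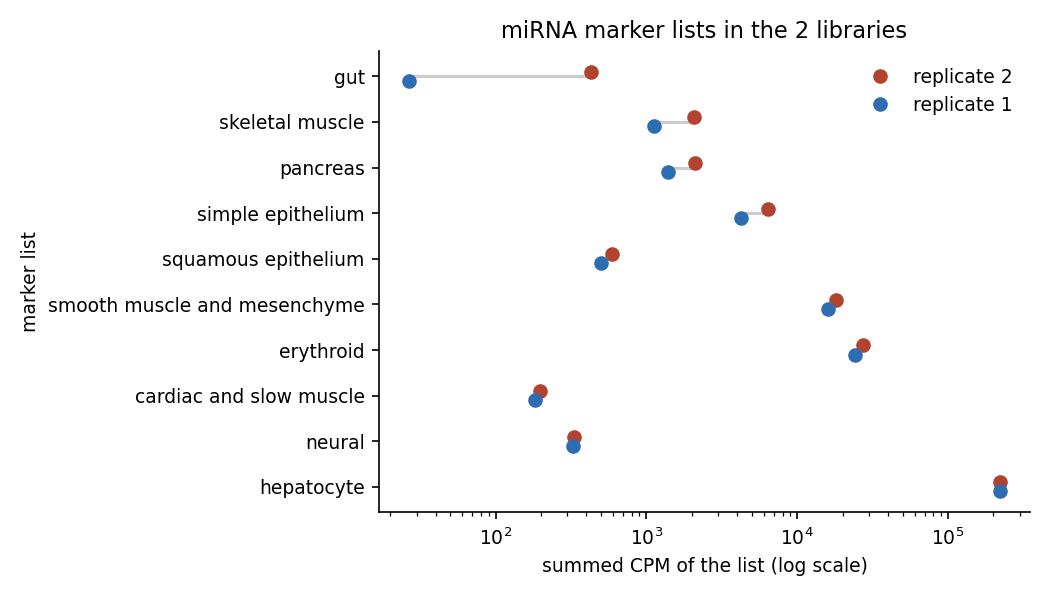
Summed CPM of each list of miRNA markers on a log axis (red, replicate 2; blue, replicate 1), ordered by the ratio between the libraries. The gut, skeletal muscle, pancreas and simple epithelium lists stand furthest apart, and the hepatocyte list is nearly equal at 221989 and 219881 CPM. Nearly all of the skeletal muscle sum is Mir206, and nearly all of the pancreas sum is Mir375.

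Both smooth muscle miRNAs were called higher in replicate 2, by small ratios, at levels where 79.2% of genes were called in either direction and 28.4% higher. Mir143, a miRNA of smooth muscle and other mesenchymal cells, was at 17326 CPM in replicate 2 and 15059 CPM in replicate 1 (log2 0.20, counting SE 0.01), and its cluster partner Mir145a was at 215 CPM in replicate 2 and 193 CPM in replicate 1 (log2 0.16, counting SE 0.06). Adding the mesenchymal Mir214 and the Mir199a genes, the list of smooth muscle and mesenchyme markers summed to 18159 CPM in replicate 2 and 16076 CPM in replicate 1, with 3 called higher and 1 lower of 4 tested.

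MicroRNAs with described roles in myoblasts but broad expression were read beside the calls over all genes tested and over genes at 100 CPM or more. Of 27 such genes with a row, 26 were tested, and 3 were called higher in replicate 2 and 8 lower. The share called was 42.3%, beside 44.5% over all genes tested. A mean of 100 CPM or more was reached by 17 of these genes. At that level 79.2% of all genes tested were called, and 28.4% were called higher. The median log2 ratio of the list was -0.02, beside -0.08 over all 440 genes tested. With TMM scaling 4 were called higher and 7 lower, and the median became 0.05. The 3 most abundant were all called lower in replicate 2: Mir322, a growth arrest miRNA of myoblasts (18827 CPM in replicate 2 and 20331 CPM in replicate 1), Mir431 (13114 and 16151 CPM in the same order) and Mir23a (12117 and 13604 CPM). Under TMM scaling all 3 stayed lower with smaller log2 ratios. These were -0.03 against -0.11 (Mir322), -0.22 against -0.30 (Mir431) and -0.09 against -0.17 (Mir23a). The 3 called higher were Mir503 (of the Mir322 cluster), Mir125b-1 and Mir125b-2, which were named after their values were seen. Mir486, which is enriched in muscle and in red cells, was at 459 CPM in replicate 2 and 727 CPM in replicate 1, and it is also an erythroid marker. Mir489, a miRNA of quiescent muscle stem cells, had no count in either library.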

How the data were processed

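Raw counts per gene were deposited by the authors for each library, without column headers. The deposited text file names the assembly (mm10) and the annotation (GENCODE M4). Neither the aligner nor the counter is given in the sources used here. The first count column equalled the sum of the other 2, and the stranded column with the larger total was used. The 4 tally rows were left out. Names and positions came from GENCODE M21 on the same assembly (1894 of 1973 rows matched). CPM used the sense total. Exact conditional binomial tests (SciPy 1.17.1) covered genes with 10 or more counts; log2 ratios added 0.5 to each count. A quasi-likelihood test has no contrast in 1 group. Scaling alternatives used edgeR 4.0.16 and DESeq2 1.42.0. The test was checked on simulated counts that held counting error only. That check does not cover the spread between pools. Replicate numbers come from the labels, which give separate tissue samples under 1 donor identifier.

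Members and lists were chosen with earlier results of these data known. Genes named were the 7 members, the gene next above and below each detected member, the 5 nearest Mir206 in log2 ratio among genes of 100 CPM or more, the muscle family and smooth muscle genes, and the 3 most abundant of each other list; others are named as examples beside a count, after their values were seen.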

Additional observations from a re-analysis of the deposited data

Results flagged for a closer look

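Counts on the strand opposite 4 listed genes exceeded the 3 counts that a count of 0 allows, in a column that the levels above do not use. Opposite Mir1b lay 11 counts in replicate 2 and 0 counts in replicate 1; Mir1a-2, which has no row of its own, is annotated on that strand. Opposite Mir486 lay 159 counts in replicate 2 and 274 counts in replicate 1, opposite the squamous epithelium marker Mir203 lay 109 counts in replicate 2 and 86 counts in replicate 1, and opposite the hepatocyte marker Mir122 lay 4 counts in replicate 2 and 2 counts in replicate 1. Groups of 2 libraries were too small to look for a sample far from the others.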

How the results depend on the processing

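The calls of Mir206 and Mir208b in replicate 2 against replicate 1 were kept under all 6 alternatives that change the test. These were counts irrespective of strand, TMM and DESeq2 scaling, a total without Mir122, and other count filters. Other pseudocounts enter only the log2 ratio and could not change a call. The ranges of log2 ratios that follow are over all 8 alternatives. The log2 ratio of Mir206 ranged from 0.89 to 0.97, that of Mir208b from 0.48 to 0.56 (exact binomial adjusted p from 6.67e-05 to 0.0012) and that of Mir133b from -0.29 to -0.21 (0.34 to 0.56). For Mir499 the sign turned with TMM (0.060) and DESeq2 (0.057) scaling, without a call (adjusted p from 0.57 to 1.00). Between 183 and 206 genes were called in all, and 2 members under each of 6 alternatives. Levels depended on the total and on the library used. Over 6 alternatives they ranged from 1104 to 2050 CPM for Mir206 and from 132 to 183 CPM for Mir499. For Mir208b the range was 36.9 to 56.4 CPM, and for Mir133b 12.2 to 17.2 CPM. The highest values of Mir499, Mir208b and Mir133b came with the total without Mir122. With either library alone the share of the members was 0.226% (replicate 2) or 0.130% (replicate 1), and the ratio of Mir206 to Mir133b, with 0.5 added, 167 or 74.0. No paired analysis was possible because there is 1 group. With 2 libraries, the SDs are rough, and the 150 counts of Mir133b leave it the widest counting interval of the 4 genes tested.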
